A study of Mus musculus with 4 samples.

Results

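The Egr genes encode zinc finger transcription factors and the Nab genes encode the corepressors that bind them. The 6 mouse genes described here are Egr1, Egr2, Egr3, Egr4, Nab1 and Nab2, taken by name from the 21853 protein-coding genes of GENCODE M21 on build mm10. For each gene, every peak in the gene body or within 50 kb of it was taken from each list, which gave 49 of the 88930 replicated peaks, 44 of the 94836 peaks of one pool and 46 of the 63623 peaks of the other.

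H3K27ac, the acetyl mark on lysine 27 of histone H3 that lies on promoters and enhancers in use, had been mapped by ChIP-seq in frozen hippocampal layer tissue. All 4 samples came from male B6CASTF1/J mice aged 2 months, F1 hybrids of a C57BL/6 and a CAST parent, and no treatment, genotype or other group was named. The samples were 2 technical replicates of each of 2 pools, C and D, with 7 biosamples in each pool. Both pools carry 1 donor record in the labels, so separate animals are not shown, and the technical replicates had been joined before peaks were called. The pool was therefore the unit of replication.

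Egr factors bind GC-rich sites through 3 zinc fingers, and in neurons Egr1, Egr2, Egr3 and Egr4 are switched on within minutes of synaptic activity through MAP kinase signals that reach serum response factor (SRF) at CArG boxes and CREB at cyclic AMP response elements. Egr1, Egr2 and Egr3 carry a domain that binds the Nab proteins, while Egr4 lacks it. Nab2 is itself an Egr target and closes a negative feedback loop, and both Nab proteins work partly through the NuRD deacetylase complex. Egr2 is also the factor that Schwann cells need to make myelin.

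The deposited lists hold no read totals, so the depth of each sample is unknown, and a region with no peak is one where none was detected. The tissue label was checked on marker genes. All 8 hippocampal and forebrain neuron markers had a replicated promoter peak, as had all 3 astrocyte, 3 oligodendrocyte, 3 microglia and 2 endothelium markers, while 0 of 3 T and B cell markers and 0 of 5 markers of other brain regions and of the trunk had one. All 3 Schwann cell markers also had a replicated promoter peak, with a median signal of 8.44. A marker peak therefore does not by itself show which cells were present. Signal in bulk tissue cannot tell apart the number of cells that carry the mark and the amount of the mark in each cell.

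Promoter sequence is shown first, because the factors that switch these genes on are known by the sites they bind. RefSeq promoters (build GRCm38.p6, the same chromosome sequence as mm10) were used for 4 of the 6 genes, namely Egr2, Egr4, Nab1 and Nab2. The chromosome of Egr1 was left out of every sequence search and of the shares given beside them, and Egr3 had no entry. The 250 bases before the start of Egr2 (chr10:67537619-67537868, + strand) and of Egr4 (chr6:85513590-85513839, − strand) are printed 5′ to 3′. Capitals mark a CArG box and each TGACG, the core of a cyclic AMP response element, read on either strand.
Egr2: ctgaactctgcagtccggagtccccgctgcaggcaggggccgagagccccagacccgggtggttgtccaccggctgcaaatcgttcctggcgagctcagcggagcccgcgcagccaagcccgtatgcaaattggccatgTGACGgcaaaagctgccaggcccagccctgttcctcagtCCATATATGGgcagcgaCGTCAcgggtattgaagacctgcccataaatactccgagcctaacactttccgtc
Egr4: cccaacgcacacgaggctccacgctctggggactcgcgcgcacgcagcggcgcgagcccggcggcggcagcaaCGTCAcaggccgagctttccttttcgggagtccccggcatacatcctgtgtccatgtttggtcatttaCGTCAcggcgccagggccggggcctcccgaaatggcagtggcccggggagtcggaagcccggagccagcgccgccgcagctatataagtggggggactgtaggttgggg
Egr2 held 1 CArG box, 72 to 63 bases before its start, and 2 copies of TGACG. A CArG box on either strand was found in 535 of 32851 promoters of the same length (250 bases before to 50 after the start), or 1.63%. Egr4 held 2 copies of TGACG, which 20.8% of the promoters had at least once, and no CArG box, while Nab1 held 1 copy of TGACG. None of the 4 promoters held the full element TGACGTCA, present in 1.79% of promoters, which overlaps TGACG wherever it occurs. TATAAA (13.6% of promoters) and CCGGAAGT, the Ets site (3.89%), were not in any of the 4 windows. The TGACG search was added after the sequences had been seen.

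Sites for the Egr factors themselves were looked for with the 9-letter words GCGTGGGCG and GCGGGGGCG on both strands. Nab1 held 2 copies of the first and 1 of the second, in a promoter of 81.7% GC (percentile 99.5). The first word is found in 0.612% of promoters and the second in 2.91%. Each is printed with 10 bases on either side, on the − strand, the site in capitals.
Nab1 site 1 (chr1:52500571-52500599): gccccgcggcCGCCCACGCcgggatctgc
Nab1 site 2 (chr1:52500539-52500567): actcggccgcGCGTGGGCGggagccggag
Nab1 site 3 (chr1:52500468-52500496): gcggggcgggGCGGGGGCGgcggaggtgg
All 3 lay before the RefSeq start of Nab1 but 90, 122 and 193 bases after the GENCODE main start. That start is further upstream, so the sites fall inside the gene by it. The windows around the GENCODE starts held 0 of these sites. GGGCGG, the Sp1 site, which can overlap the Egr words, occurred 7 times in the Nab1 promoter and 1 time in that of Nab2, against 35.7% of promoters with at least 1.

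The stretch between the main start of Nab2 and the nearest start of Nemp1, its neighbour on the opposite strand, is only 190 bases long (chr10:127666711-127666900, printed on the − strand). It is shown because the widest acetylated domain of the 6 genes lies across it, and it holds no capitals because none of the Egr, CArG or TGACG words was found in it. Nab2 has 4 coding starts, and its annotated span reaches chr10:127668568, beyond that start of Nemp1, so the genes overlap.
Nab2: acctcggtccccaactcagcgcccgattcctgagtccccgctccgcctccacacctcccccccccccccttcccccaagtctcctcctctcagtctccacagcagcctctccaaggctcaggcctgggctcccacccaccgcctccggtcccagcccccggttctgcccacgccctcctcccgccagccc

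All 6 genes had a promoter peak, meaning a peak within 1 kb of a start of one of their coding transcripts, in the replicated list and in both pool lists. The same held for 60.8% of protein-coding genes by the replicated peaks, 61.4% by those of pool C and 57.1% by those of pool D. Having such a peak is therefore the usual state, and the genes differed in how strong and how wide the peak was. Nab2 stood at the upper end of both scales and Egr2 at the lower end.

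**Figure D1:**
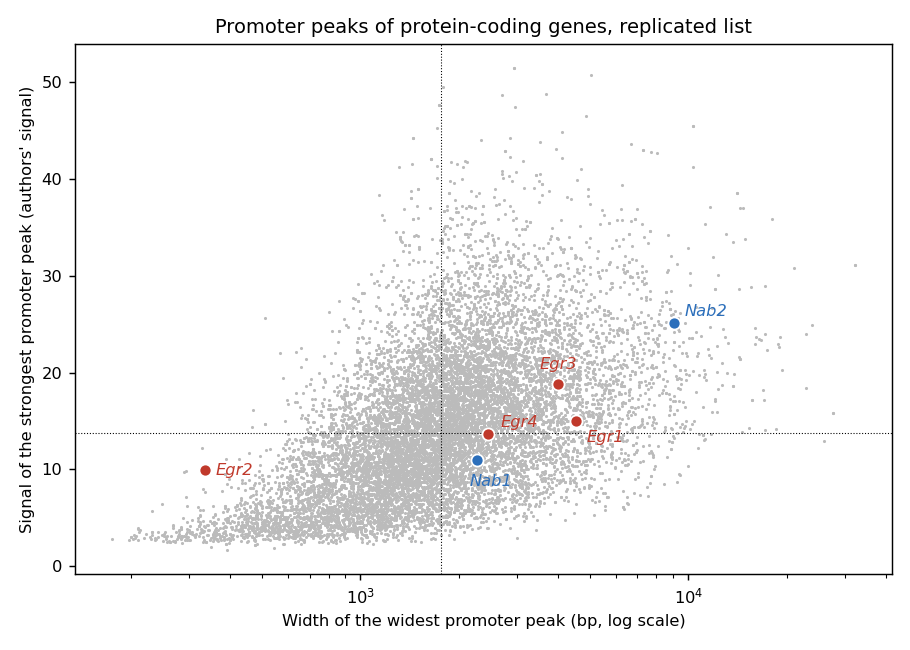
Width of the widest promoter peak (log axis, bp) against signal of the strongest (the authors' own unit) for 13290 protein-coding genes with a replicated promoter peak (grey), Egr genes in red and Nab genes in blue; dotted lines are the medians, 1757 bp and 13.8. Nab2 lies at 9024 bp and 25.1, and Egr2 at 336 bp and 9.95.

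Egr1, the best studied of the fast-induced zinc finger factors (chr18:34859823-34864984, + strand), had a promoter signal of 15.0 in the replicated list, 16.4 in pool C and 11.7 in pool D. Signals are the authors' own values and are read within a list. They put Egr1 at percentile 56.9, 52.5 and 61.0 among genes with a promoter peak, close to the middle each time. Its width was far above the middle in the replicated list. The replicated peak was 4543 bp wide (percentile 91.8), ran from 1266 bp before the main start to 3276 bp after it and had its summit 1564 bp inside the gene. In pool C the peak was 4553 bp wide. In pool D 3 separate peaks covered 81.4% of the same stretch, the widest of 1875 bp (percentile 74.8), so the width of Egr1 rests on where neighbouring peaks were joined.

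Egr2 (chr10:67535475-67542188, + strand) had the narrowest promoter peak of the 6. Its signal was 9.95, 11.3 and 6.71 in the replicated, pool C and pool D lists (percentiles 30.3, 29.3 and 22.3). Its width was 336, 845 and 298 bp, at percentile 0.926, 12.8 and 0.998. The 3 lists thus place Egr2 in the lower part of the range on both scales. The replicated peak, chr10:67537469-67537804, ended 65 bp before the main start, and none of the 6 annotated coding starts of Egr2 lay inside a peak of any list. That edge falls within the CArG box printed above, and the peak covered 186 of the 250 bases shown. Egr2 also had 0 distal peaks in all 4 lists, and its window held 1 other replicated peak, at the promoter of Ado, a thiol dioxygenase gene, 2252 bp wide with a signal of 16.7.

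Egr3 (chr14:70077203-70082614, + strand), whose product is needed for muscle spindles and acts in memory, had 2 promoter peaks that nearly touch. The peak over its start was 3993, 3915 and 3360 bp wide in the replicated, pool C and pool D lists (percentiles 89.2, 88.6 and 94.2), a width that changed little between lists. Its signal was 15.7, 17.6 and 10.9. The second peak, from 3125 to 628 bp before the main start, was the stronger, with 18.8 in the replicated list, 20.4 in pool C and 14.1 in pool D. In pool D it was shorter, ended 1259 bp before the start and so counted as distal. The strongest point of the acetylated region at Egr3 was upstream of the gene in all 3 lists.

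The 200 bases around the summit of that upstream peak (chr14:70075022-70075221, + strand, 79% GC) are printed because they hold an Egr word, in capitals on the opposite strand.
Egr3 upstream peak: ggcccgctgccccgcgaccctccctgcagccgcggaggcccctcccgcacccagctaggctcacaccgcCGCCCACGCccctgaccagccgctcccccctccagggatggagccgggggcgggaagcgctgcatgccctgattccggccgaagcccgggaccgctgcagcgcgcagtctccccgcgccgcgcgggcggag
Around the summits of promoter peaks, GCGTGGGCG or its reverse complement was present in 92 of 16809 windows of 200 bases (0.547%), those near Egr1 and the rest of its chromosome left out, and in 2 of the 8 promoter peaks of Egr2, Egr3, Egr4, Nab1 and Nab2. The other was the peak over the start of Egr4, with the word 254 bases into the gene (chr6:85513317-85513345, − strand). It is labelled first exon below, although exon limits were not read from the annotation.
Egr4 first exon: ccgaaggctgCGCCCACGCcagccccgag
GCGGGGGCG, searched in the same windows of 200 bases, was in 0 of the 8 promoter peaks, against 1.45% of all. This search of promoter summits was added after the data had been seen, and a matching word does not show binding.

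Egr4 (chr6:85511121-85513589, − strand) is the shortest of the 6 genes at 2469 bp, and its peak covered nearly all of it. Signals were 13.6, 14.9 and 9.18 in the replicated, pool C and pool D lists, at percentiles 49.2, 45.3 and 41.6. Widths were 2453, 2888 and 2104 bp, at percentiles 71.6, 78.6 and 80.4. Egr4 was thus average in signal and above average in width in each list. Replicated peaks covered 94.4% of the gene body, and the main peak stopped 123 bp before the start. A small second peak, 292 bp wide with a signal of 4.63, lay 249 to 540 bp upstream and was joined to the main one in pool C.

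Nab1 (chr1:52457294-52500679, − strand) is the long gene of the set, with 43386 bp. Its promoter signal was 10.9 in the replicated list, 14.7 in pool C and 8.46 in pool D, at percentiles 35.0, 44.7 and 36.1, below the middle each time. The widths of 2266, 3348 and 2093 bp stood at percentiles 67.1, 84.1 and 80.1. Peaks covered 9.47% of the gene body. Besides the promoter, that share came from a peak 33.7 to 36.1 kb into the gene with a signal of 5.90, at the start of a shorter noncoding Nab1 transcript.

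Nab2 (chr10:127660918-127668568, − strand), the corepressor that Egr factors induce, had the strongest and widest promoter peak of the 6. Its signal was 25.1 in the replicated list, 28.7 in pool C and 18.0 in pool D, at percentiles 91.0, 91.5 and 90.6, so the rank hardly moved between lists. The replicated peak, chr10:127661449-127670472, was 9024 bp wide (percentile 98.8) and covered 93.1% of the gene body. It was 8627 bp wide in pool C, whereas in pool D 5 peaks covered 83.8% of it, the widest of 4306 bp (percentile 97.2). Nab2 was the 1 gene of the 6 with a promoter peak of 5 kb or more in the replicated list, against 3.99% of protein-coding genes. The same peak also spans starts of Nemp1, a nuclear envelope protein gene, and of the antisense transcript Gm16229, and the shares of these promoters in it cannot be told apart.

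**Figure D2:**
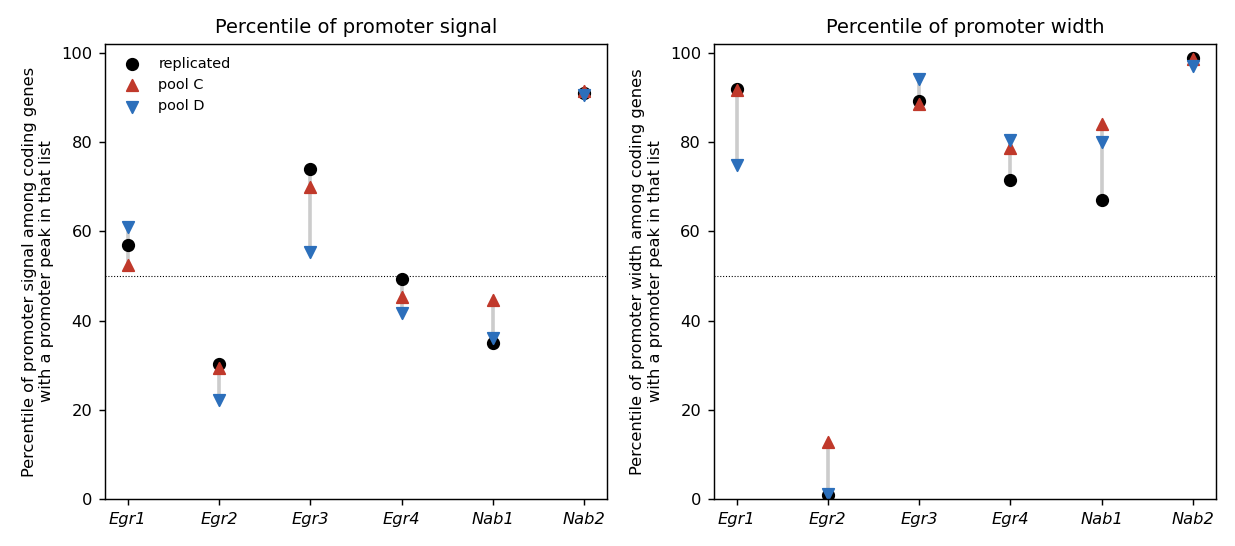
Percentile of promoter signal (left) and of promoter width (right) of each gene among protein-coding genes with a promoter peak in the same list, for the replicated (circle), pool C (upward triangle) and pool D (downward triangle) lists. Nab2 stays above 90 in all 6 points and Egr2 has the lowest point of the 6 genes in each list. The width of Egr1 falls from 91.8 in the replicated list to 74.8 in pool D. The signal of Egr3 falls from 74.1 to 55.3 in the same lists, where its stronger upstream peak counts as distal in pool D.

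The main start lay inside a replicated peak in 5 of the 6 genes, Egr2 being the exception, against 49.1% of protein-coding genes. In all 5 the peak reached further into the gene than upstream of it, as it did in 74% of the genes with a covered start. The downstream arm was 3626 bp against 366 bp upstream in Egr3 and 2329 bp against 123 bp in Egr4. It was 1657 bp against 608 bp in Nab1 and 5261 bp against 3762 bp in Nab2, the most even of the 5. A lean towards the gene body is common among acetylated promoters, and the count of 5 is to be read beside that share.

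**Figure D3:**
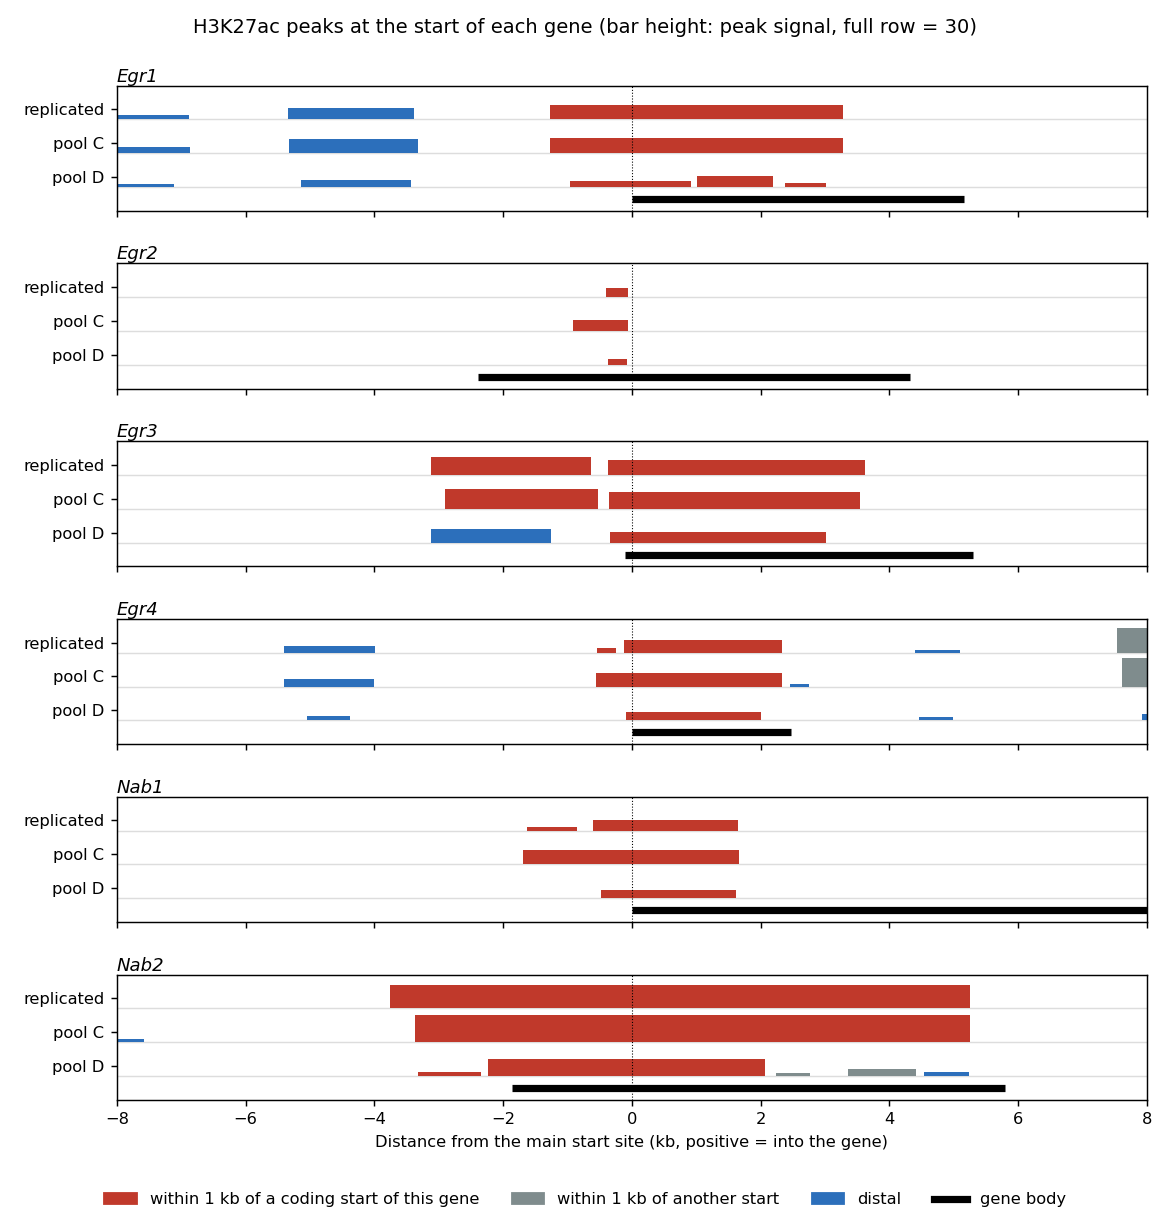
Peaks within 8 kb of the main start of each gene (x axis: distance in kb, positive into the gene) in the replicated, pool C and pool D lists; bar height is the peak signal, with a full row at 30, red bars are promoter peaks of the gene, grey bars lie at other starts, blue bars are distal and black bars are gene bodies. The single pool C domains of Egr1 and Nab2 are split in pool D, and the Egr2 peak stops short of the start in all 3 lists.

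The length in peaks within 10 kb on either side of the main start separated the genes more than presence did. It was 10266 bp for Nab2, 9548 bp for Egr1, 8390 bp for Egr4, 6491 bp for Egr3, 3048 bp for Nab1 and 343 bp for Egr2, where the median protein-coding gene had 1489 bp. These values stood at percentiles 97.6, 96.9, 95.2, 91.2, 72.4 and 34.1. Pool C gave 10381, 9692, 8080, 6293, 3348 and 860 bp in the same order of genes, and pool D gave 8451, 7543, 5323, 5227, 2093 and 298 bp. Within 10 kb the order of the 6 genes was the same in the 3 lists, although Egr4 and Egr3 were nearly equal in pool D. Within 2 kb on either side the replicated list gave another order, with 4001 bp for Nab2, 3740 bp for Egr3, 3267 bp for Egr1, 3048 bp for Nab1, 2416 bp for Egr4 and 336 bp for Egr2. The windows of Nab2 and Egr4 take in peaks at the starts of the neighbouring genes Nemp1 and Fbxo41.

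Distal peaks, more than 1 kb from every annotated start, numbered 30 of the 49 replicated peaks in the windows. They were spread unevenly, with 13 around Egr4, 9 around Egr1, 4 around Egr3, 2 around Nab1, 2 around Nab2 and 0 around Egr2. The counts stood at percentiles 92.1, 85.5, 63.2, 46.1, 46.1 and 14.6, and 29.2% of protein-coding genes had no distal peak in their window, as Egr2 had none. Pool C and pool D gave 26 distal peaks each. Egr1 had 8 and 7 of these, Egr3 4 and 4, Egr4 12 and 9, Nab1 0 and 1, and Nab2 2 and 5. The larger pool D count at Nab2 came with the splitting of the wide domains at Nab2 and at Lrp1, whose pieces no longer touch a start. At Egr4, the pool D distal peaks 7.93 to 8.42 kb and 8.54 to 8.86 kb downstream lay inside the pool C peak at the start of Fbxo41. The distal peak of Nab1 in pool D lay inside a peak that the replicated and pool C lists place at another start.

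**Figure D4:**
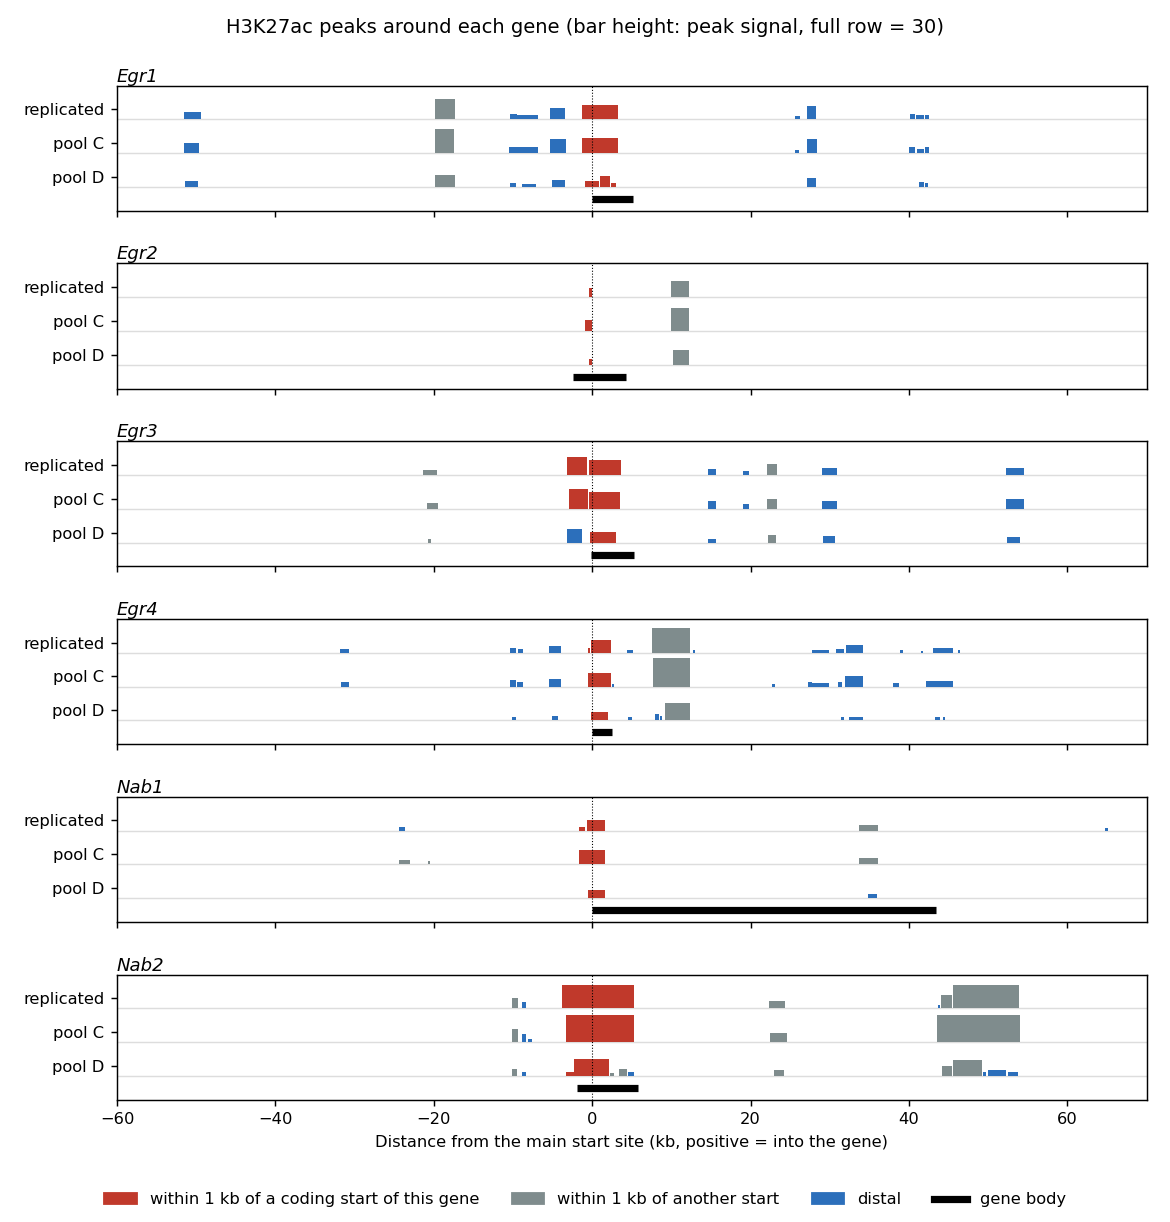
All peaks in the gene body or within 50 kb of each gene (x axis: distance from the main start in kb, positive into the gene) in the replicated, pool C and pool D lists, with bar height for the peak signal and a full row at 30; red, promoter peaks of the gene; grey, peaks at other starts; blue, distal peaks; black, gene body. Egr4 and Egr1 have 13 and 9 distal peaks in the replicated list, and the Egr2 window holds 2 peaks in all.

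The strongest distal peaks belonged to Egr1 in the replicated and pool C lists, while in pool D the upstream peak of Egr3, distal there, was stronger. One lay 27.1 to 28.3 kb downstream of its start (chr18:34886944-34888143) with a signal of 13.9 in the replicated list, 14.6 in pool C and 9.86 in pool D. Another lay 3.38 to 5.35 kb upstream (chr18:34854478-34856439) with 12.1, 14.8 and 7.97 in the same lists. Both were found in both pools with almost the same edges. In the replicated list they were at percentile 91.9 and 89.6 of all peaks by signal, close to the 15.0 of the promoter peak itself. Further upstream, 2 peaks between 6.88 and 10.4 kb carried 4.93 and 5.75, and 3 peaks between 40.1 and 42.5 kb downstream carried 4.86 to 6.01. The 2 remaining peaks lay 49.4 to 51.6 kb upstream, with 8.10, and 25.6 to 26.3 kb downstream, with 3.23, the 1 distal peak of Egr1 below the median of all distal peaks. The window also held the promoter peak of Reep2, an endoplasmic reticulum shaping gene, with 21.2.

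All 4 distal peaks of Egr3 lay downstream of its start, and their replicated signals of 4.16 to 7.51 were all above 3.82, the median of all distal peaks. The strongest, 29.0 to 30.9 kb from the start and within the neighbouring gene Bin3, had 7.51, 7.77 and 6.71 in the replicated, pool C and pool D lists. The peak nearest to the gene, 14.6 kb from its main start, had 6.25, 7.79 and 3.99. The peak at 19.0 to 19.7 kb had 4.16 in the replicated list and 4.92 in pool C, and no peak was listed there in pool D. The farthest peak, 52.2 to 54.6 kb away and also within Bin3, had 7.46, 9.93 and 5.87.

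Egr4 had the most distal peaks, of ordinary strength, with a median signal of 3.78 against 3.82 for all distal peaks. Those 46.1 to 46.4, 41.5 to 41.8, 38.9 to 39.2 and 12.7 to 13.0 kb downstream were in neither pool list. Their replicated signals were 2.83, 2.43, 2.46 and 2.89 in turn. The distal count of Egr4 stood at percentile 92.1 in the replicated list, 89.8 in pool C and 91.4 in pool D. The median of all distal peaks was exceeded by 6 of its 13, and by 8 of 9 at Egr1, and 9 of the 13 lay downstream, most of them inside Fbxo41, an F-box gene transcribed in the same direction. The strongest of them, 32.1 to 34.2 kb downstream, had a signal of 8.10 in the replicated list, 11.5 in pool C and 4.14 in pool D. The strongest upstream one, 3.99 to 5.40 kb before the start, had 6.82, 8.41 and 4.75. The promoter peak of Fbxo41, 4846 bp wide with a signal of 26.2, was stronger than that of Egr4. Which gene the peaks between them act on was not tested.

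The corepressor genes had few distal peaks. At Nab1, 1 lay 23.6 to 24.4 kb upstream with a replicated signal of 4.28 and 1 lay beyond the end of the gene with 2.66. The second was in neither pool list. At the first, pool C had a longer peak with 4.72 that came within 1 kb of a start of the noncoding gene Gm553, and pool D had none. The 1 distal peak of Nab1 in pool D, with 4.82, lay inside the gene, 34.8 to 36.0 kb from the start. At Nab2, the peak 8.33 to 8.88 kb upstream had 6.82, 8.62 and 4.40 in the replicated, pool C and pool D lists, and it lies inside Nemp1. The second distal peak, 43.6 to 43.9 kb downstream, had a replicated signal of 3.12. Of the peaks at other starts in the Nab2 window, the strongest was the 8405 bp peak at Lrp1, a lipoprotein receptor gene, with 24.6, and the peak at Stat6 had 8.24. Starts of Kdm3b, Cct7 and Myo1a also lay in the windows, of Egr1, Egr4 and Nab2 in turn.

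**Figure D5:**
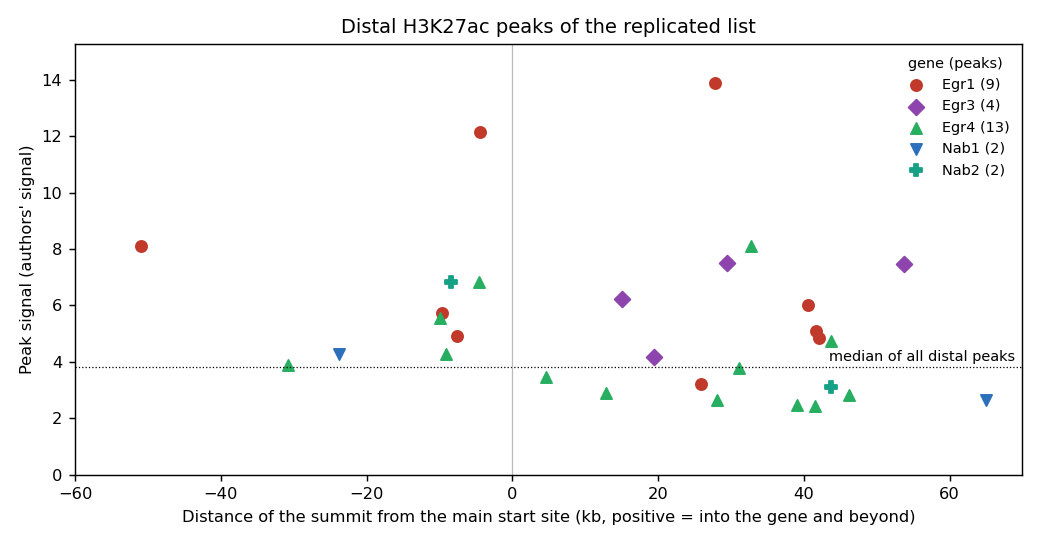
Signal of the 30 replicated distal peaks (y axis, the authors' own unit) against the distance of the summit from the main start of the gene (x axis, kb); the dotted line is the median of all distal peaks, 3.82. The 2 highest points, 13.9 and 12.1, are both at Egr1, and 20 of the 30 points lie above the line.

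The sequence at 1 of these peaks is printed, 200 bases around the summit on the + strand, as the strongest distal peak of Egr4 (chr6:85518071-85518270) that held one of the words searched. Capitals mark CAGATG, an E-box of neuronal bHLH factors. TGANTCA, the AP-1 site bound by Fos and Jun, was searched as well.
Egr4 distal peak: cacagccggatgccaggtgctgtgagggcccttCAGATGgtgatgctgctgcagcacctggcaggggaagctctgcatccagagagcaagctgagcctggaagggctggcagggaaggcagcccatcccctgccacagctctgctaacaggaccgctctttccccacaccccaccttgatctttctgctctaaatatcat
In windows of 500 bases at the summits, TGANTCA was present in 5 of the 21 distal peaks of Egr3, Egr4, Nab1 and Nab2. It was present in 16.9% of all 62968 such peaks outside the chromosome of Egr1. CAGATG was present in 11 of 21, against 40.1%. The MEF2 box was in 1 of 21, against 8.75%. A CArG box, TGACGTCA and both Egr words were in 0 of 21, where 2.61%, 0.403%, 0.122% and 0.191% of distal peaks hold them. No test was run on these shares.

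The pool C list was the longer of the pool lists over the genome. The windows of the 6 genes held about as many peaks in both, but these covered 88665 bp in pool C and 60220 bp in pool D. The wide domains at Nab2 and Lrp1 were counted as several peaks in pool D. Of the 44 pool C peaks in the windows, 25 (56.8%) had at least 50% of their length in pool D peaks, where the share over the whole list was 39.1%. Of the 46 pool D peaks, 44 (95.7%) were covered in this way by pool C, against 96.4% of the whole list. In the first direction 6 of 7 promoter peaks and 12 of 26 distal peaks were shared. Shares by kind over the whole list were not computed. Distal peaks were 26 of the 44 pool C peaks in the windows but 70566 of the 94836 in the whole list, so 56.8% and 39.1% describe unlike mixes of peaks. By gene, the count ran from 1 of 4 at Nab1 and 4 of 14 at Egr4 to 8 of 10 at Egr1 and 5 of 6 at Nab2. Depth may differ between the pools, and its part in these counts was not tested.

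By the ranks of promoter signal and width in the 3 lists (6 values over 2 pools), the 2 protein-coding genes most like Egr1 were Shisa9 and Pnck, with signals of 15.8 and 15.2 and widths of 4781 and 3855 bp in the replicated list. Those most like Egr2 were Timm50 and March2, with 572 and 558 bp, wider than Egr2 itself. Egr3 was closest to Parp1 and Smim7, Egr4 to Nme2 and Arih1, and Nab1 to Inppl1 and Tfrc. Nab2 was identical to Nemp1, since both take the same peak, and next closest to Cic. Among the 6 genes themselves the closest pair was Egr4 and Nab1, at a Euclidean distance of 10.2 percentile units over the 6 values, and the farthest was Egr2 and Nab2, at 117 units.

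Genes that act before and after the Egr factors were described by lists. All 12 genes of the MAP kinase and SRF pathway had a replicated promoter peak, with a median signal of 17.1 and a median width of 2436 bp over the marked genes. The strongest were Creb1, which encodes CREB, with 28.4, the MAP kinase kinase gene Map2k2 with 24.0 and the SRF cofactor gene Mrtfb with 21.3. All 13 genes of the NuRD complex were marked, with a median signal of 21.9 and a median width of 1834 bp, led by the deacetylase gene Hdac2 with 37.2, Mbd3 with 33.6 and Rbbp4 with 27.3. For the 6 genes of the Egr and Nab set the medians were 14.3 and 3223 bp, and for all protein-coding genes with a promoter peak 13.8 and 1757 bp. The set therefore had a median signal close to that of all protein-coding genes with a promoter peak, beside a larger median width. The larger width was not particular to the set. Of the lists in the next paragraph, the reported Egr targets, which include Nab2, had a median width of 3466 bp. The related zinc finger genes had 4717 bp and the fast-induced genes 2611 bp.

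Other genes that neurons switch on within minutes were marked in 12 of 13 cases in the replicated list, 13 in pool C and 11 in pool D. The strongest in the replicated list were Nr4a3 with 37.1, Junb with 24.6 and Jun with 24.3. In pool D alone Nr4a3 had 6.82, against 38.9 in pool C. Nr4a3 was among the lowest of the 11 genes marked in pool D, which were led by Jun with 17.1 and Junb with 16.5. Maff had no replicated promoter peak, though pool C listed one with 6.08. Their median signal was 16.4 and median width 2611 bp. Of 12 genes reported elsewhere as Egr targets, 10 were marked, among them Nab2 at 25.1 and Syn2 at 20.2, and the immune genes Fasl and Tnf without a promoter peak. Related zinc finger genes of GC-rich sites were marked in 7 of 8 cases, led by Sp3 with 43.1, Klf9 with 37.0 and Klf13 with 33.4, while Wt1 had none.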

How the data were processed

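Peak lists on build mm10 were deposited by the authors in narrowPeak format, per the labels: a replicated list, a list called on both pools together, and 1 list for each pool with its technical replicates joined. The aligner and the caller were not given in the sources used here. Signal values are as the authors deposited them, on a scale that no label states. The −log10 p and −log10 q values of each peak were deposited by the authors and used only as a filter. Of the 88930 replicated peaks, 82099 had the edges and signal of a peak of the joint list, so the replicated list is not independent of it. No read totals were in the files, so depth is unknown.

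Genes came from GENCODE M21. A promoter peak lay within 1 kb of a start of a coding transcript, and signal and width are the highest over such peaks. The main start is that of the best-labelled transcript (APPRIS, then support level, then length). Percentiles count ties at equal parts. Members are not replicates, so no test was run and no p-value is given. Python 3.11.15 with numpy 2.4.6 and pandas 2.3.3 was used, and the interval, percentile and word searches were tested on simulated data. Members and gene lists were chosen with earlier results of these data known. Named were the 6 genes, in each pathway list the 3 strongest and up to 2 unmarked genes, the 2 genes most like each, and coding genes starting in a window. An item that these rules take is not reported here. The chromosome of Egr1 was left out of the sequence searches. Alternatives were the other lists, each pool alone, 2 thresholds, other windows, widths and overlaps.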

Additional observations from a re-analysis of the deposited data

How the results depend on the processing

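No paired analysis was possible because the technical replicates of each pool had been joined before the peak lists were made and no test was run. All 6 genes kept a promoter peak under each of the 8 alternatives tried. The count of promoter peaks of 5 kb or more, 1 in the replicated list, was 0 to 1 with either pool alone (0 in pool D, where the Nab2 domain is split), and rose to 2 at a width of 4 kb and 3 at 3 kb. The 30 distal peaks became 26 with either pool alone, 16 among peaks above the median signal, 16 within 25 kb and 50 within 100 kb. The share of pool D peaks found in pool C fell from 95.7% to 45.7% when 50% was asked in both directions (median peak widths were 894 bp in pool C and 743 bp in pool D). Leaving out TGACG, the 12 word matches in the 4 promoters (17 with it) became 3 around the GENCODE starts, which lie elsewhere at Nab1. The 23 pairs of distal peak and word, also without TGACG, became 11 in windows of 200 bases. Further settings for single genes, on signal, width and covered length, numbered 66. Of these, 24 moved by more than the standard deviation of the 2 pool values. The pool values were themselves among the settings judged, and covered length changes with window size by construction. With depth unknown, a peak missing from pool D was not detected there.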
